A study of Mus musculus with 5 samples.

Results

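The 10 genes described here encode peptide hormones of the pancreatic islet and gut and their granule proteins: Gcg, Sst, Ghrl, Ppy, Pyy, Ins2, Iapp, Sct, Chga and Chgb. They were taken by symbol from the platform annotation, all 10 were found among 18193 genes, and they have 13 probe sets, 4 of them for Iapp and 1 for each of the other 9. Mouse embryonic stem cells grown on gelatin-coated plastic were steered to pancreas and harvested on days 5, 6 and 8. The 5 groups were untreated cells at day 5, cells at day 6 with 2 µM MPA for 1 day, untreated cells at day 6, cells at day 8 with 2 µM MPA for 3 days, and untreated cells at day 8. MPA was added to day 5 cells and the labels do not write the name out; they give no cell line name for any group. Each group is 1 array, so the data hold no replicates, no value carries a spread between cultures and the number of arrays limits the precision.

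Islet and gut endocrine cells make their hormones as larger precursors. The precursors are packed with granins such as chromogranin A and B into dense-core granules, where prohormone convertases cut them into active peptides. In the embryo these cells arise from endoderm through a short phase of Neurog3 expression, followed by factors such as Neurod1, Insm1 and Isl1, and the earliest endocrine cells of the mouse pancreas make mainly glucagon. Sst, Chga and Chgb are also made by neurons, so in a mixed culture they are not specific to endocrine cells.

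Values are linear MAS5 signals, with a 2% trimmed mean of about 500 on each array as read from the deposited values. A floor of 86.8, which is the median signal once control probe sets are left out, replaced every lower signal before log2 differences were taken. A fold against an array under the floor is a lower bound ("at least"), and no fold is given where both arrays lie under it. Ranks are over the differences of the raised signals, with a bound ranked at its bound. A rank therefore does not order true sizes where bounds enter. The array medians ran from 78.3 to 94.5. For Gapdh, the signal near the 3' end over that near the 5' end, which grows as RNA degrades, was 1.08 at day 5, 1.31 with MPA and 1.19 without at day 6, and 1.57 with MPA and 1.55 without at day 8. For Actb this ratio was 2.08 at day 5, 3.06 with MPA and 3.04 without at day 6, and 2.71 with MPA and 2.81 without at day 8. At day 8, where most hormone genes were measured, both ratios thus differed little between the MPA and the untreated array. Between days both ratios differed, with Gapdh highest at day 8 and Actb highest at day 6. In these bulk samples fewer cells of a type and less RNA per cell cannot be told apart.

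The hormone genes were seen above the floor mainly at day 8. Of the 10 genes, 2 lay above it at day 5 (Pyy and Chga), 3 with MPA (Ins2, Sct and Chga) and 2 without (Pyy and Sct) at day 6, and 9 with MPA and 8 without at day 8. The share of all genes above the floor was nearly flat over the same arrays, between 60.2% and 63.4%. Iapp was the gene under the floor on every array by its main probe set, and Ppy was above it in the day 8 MPA cells and on no other array.

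**Figure D1:**
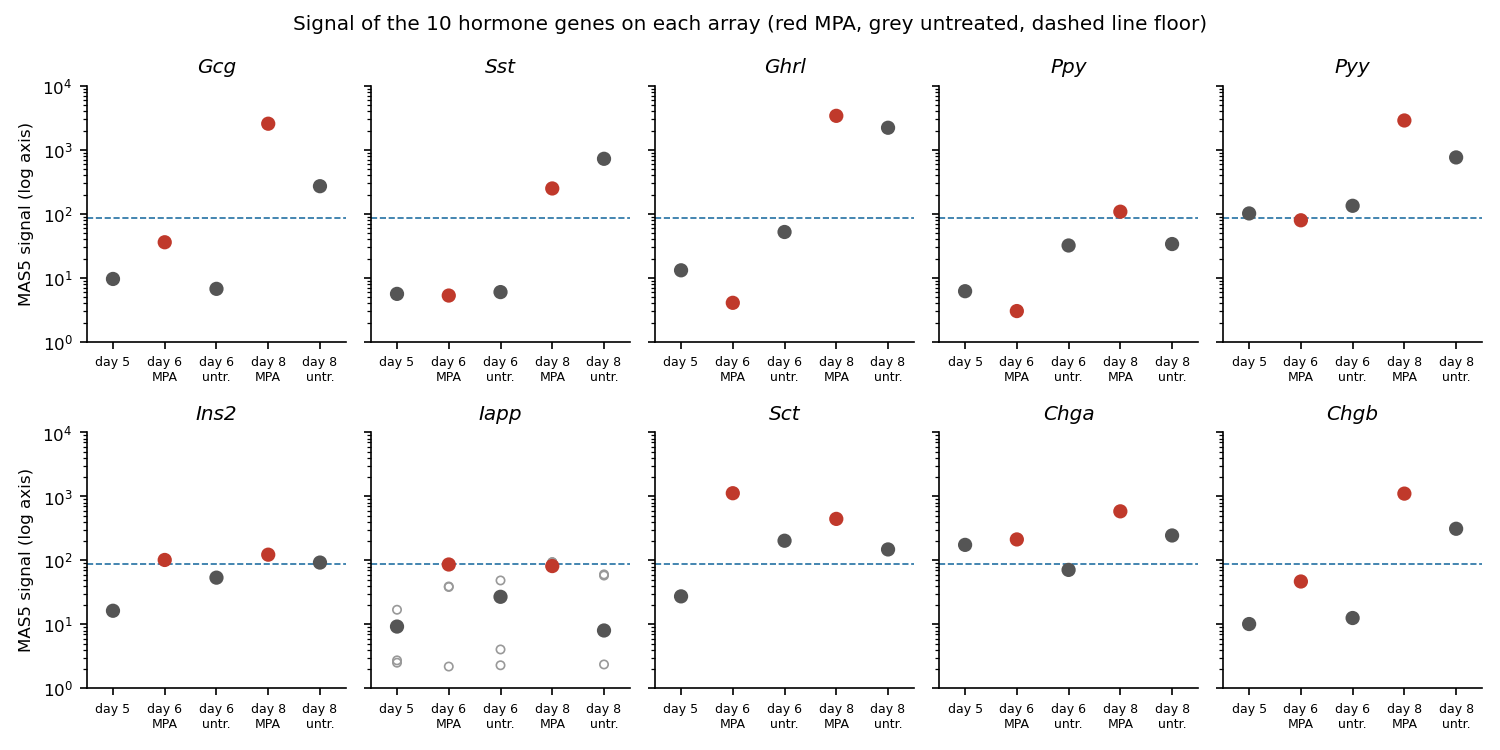
MAS5 signal (log axis) of each hormone gene on the 5 arrays, in red with MPA and in grey without. Filled points are the main probe set, open points the other 3 probe sets of Iapp, and the dashed line is the floor of 86.8. At day 8 the MPA point lies far above the untreated one for Gcg and below it for Sst, and Sct has its highest point in the day 6 MPA cells.

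With MPA at day 8 the glucagon gene had the highest difference of all genes ranked, other genes' bounds included, while the somatostatin gene was lower. Of the 10 hormone genes, 5 were at least 2-fold higher with MPA (Gcg, Pyy, Chgb, Sct and Chga), against 2.58% of all genes, and 1 was at least 2-fold lower (Sst), against 2.20% of all genes. Among the 12599 genes with at least 1 of the 2 arrays above the floor these shares were 3.72% higher and 3.18% lower. The median log2 difference of the 10 was 0.94, against 0 over all 18193 genes. With 1 array per group these are sizes without a test. The disagreement between probe sets of 1 gene gives a scale for them: its SD was 0.40 on the log2 scale over 4402 genes with several probe sets above the floor on both day 8 arrays. The 2-fold differences of the hormone genes ran from 1.25 for Chga to 3.25 for Gcg, with -1.54 for Sst. Any 2-fold difference is at least 1 on the log2 scale and so exceeds that SD by the threshold alone. The SD therefore lends these genes no support, and it does not hold the spread between cultures.

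Gcg (Entrez gene 14526) encodes proglucagon, the precursor of glucagon in alpha cells and of the incretin GLP-1 in intestinal L cells. Its signal was 9.61 at day 5, 36.0 with MPA and 6.73 without at day 6, and 2572 with MPA and 271 without at day 8. It was thus under the floor until day 6 and 9.49-fold higher with MPA at day 8, the highest of 12599 ranked differences.

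Pyy (Entrez gene 217212) encodes peptide YY, a satiety hormone of L cells that early islet cells of the mouse also make. Its signal was 102 at day 5, 79.5 with MPA and 134 without at day 6, and 2890 with MPA and 764 without at day 8. The day 8 value was 3.78-fold higher with MPA (rank 30), whereas at day 6 the MPA array lay just under the floor and the untreated array just above it. Ppy (Entrez gene 19064) encodes pancreatic polypeptide and is the direct neighbour of Pyy on chromosome 11. Its signal was 6.19 at day 5, 3.03 with MPA and 32.1 without at day 6, and 108 with MPA and 33.8 without at day 8, a difference of at least 1.25-fold. That is a lower bound, so the sizes for Ppy and Pyy cannot be ordered.

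Ghrl (Entrez gene 58991) encodes ghrelin, which stimulates appetite and marks the epsilon cells of the embryonic islet. Its signal was 13.1 at day 5, 4.07 with MPA and 52.1 without at day 6, and 3415 with MPA and 2224 without at day 8. The day 8 difference was 1.54-fold (rank 1306), under the 2-fold threshold, so a high day 8 signal was present with and without MPA.

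Sst (Entrez gene 20604) encodes somatostatin, the inhibitory hormone of islet delta cells, gut D cells and many neurons. Its signal was 5.62 at day 5, 5.29 with MPA and 5.99 without at day 6, and 250 with MPA and 727 without at day 8. It was 2.91-fold lower with MPA at day 8, which placed it 106 from the lowest of the 12599 differences and made it the 1 hormone gene that went the other way.

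Sct (Entrez gene 20287) encodes secretin, made by S cells of the duodenum and transiently by the embryonic islet of rodents. Its signal was 27.4 at day 5, 1124 with MPA and 203 without at day 6, and 446 with MPA and 148 without at day 8. Its top level was after 1 day of MPA, when the other 9 genes were near or under the floor or, for Chga, at 213. The MPA difference was 5.53-fold at day 6 (rank 11 of 12240) and 3.003-fold at day 8 (rank 91).

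The granin genes encode chromogranin A and B, acidic proteins that help to form dense-core granules. Chga (Entrez gene 12652) had a signal of 175 at day 5, 213 with MPA and 71.1 without at day 6, and 585 with MPA and 245 without at day 8. It was higher with MPA by at least 2.45-fold at day 6 and by 2.38-fold at day 8, and the day 6 untreated array was the 1 array under the floor. Chgb (Entrez gene 12653) had a signal of 10.1 at day 5, 46.8 with MPA and 12.6 without at day 6, and 1108 with MPA and 312 without at day 8. It was 3.55-fold higher with MPA at day 8 (rank 44) and under the floor before.

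Promoter sequence is shown for 4 genes. Of these, 2 shared a motif and went opposite ways with MPA (Sst lower and Chgb higher at day 8). The other 2 are the hormone genes ranked highest for MPA at day 8 and at day 6 (Gcg and Sct). Each line gives the 150 bases before the RefSeq start site (build GRCm38.p6), 5′ to 3′ on the gene's strand. Capitals mark TGACGTCA, the cyclic AMP response element, in Sst and Chgb, CAGATG in Gcg, and CANNTG in Sct. CANNTG is the E-box read by basic helix-loop-helix factors, of which Neurog3 and Neurod1 are members, and CAGATG is 1 form of it, so every CAGATG is also a CANNTG. The windows are chr16:23890845-23890994 (minus strand) for Sst, chr2:132781492-132781641 (plus strand) for Chgb, chr2:62483654-62483803 (minus strand) for Gcg and chr7:141279134-141279283 (minus strand) for Sct.
Sst: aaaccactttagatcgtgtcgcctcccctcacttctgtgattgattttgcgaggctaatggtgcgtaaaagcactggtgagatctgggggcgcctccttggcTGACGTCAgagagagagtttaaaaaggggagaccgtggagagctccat
Chgb: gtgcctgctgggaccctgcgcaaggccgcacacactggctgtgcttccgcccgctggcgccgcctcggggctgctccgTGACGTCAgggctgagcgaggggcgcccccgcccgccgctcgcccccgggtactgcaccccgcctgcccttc
Gcg: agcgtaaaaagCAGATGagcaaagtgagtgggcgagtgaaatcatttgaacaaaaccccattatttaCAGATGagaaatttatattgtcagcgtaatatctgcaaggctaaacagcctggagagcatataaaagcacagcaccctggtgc
Sct: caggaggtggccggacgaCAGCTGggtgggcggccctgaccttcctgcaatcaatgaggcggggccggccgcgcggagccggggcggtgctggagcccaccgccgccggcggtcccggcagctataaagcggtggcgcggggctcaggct

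Motifs were searched on both strands in the 250 bases before each start site. The element TGACGTCA was in 1.55% of 32851 promoter windows, and of the 9 hormone genes with a window it was in Sst (starting at position -48 from the start site) and in Chgb (-72). CAGATG was in 14.4% of all windows and in Gcg (-139 and -83), Sct (-242) and Iapp. CANNTG was in 66.2% of all windows and in 8 of the 9 genes, all but Ppy. The hormone counts are by gene, with a match at any start site. Counted that way, the shares of 27025 genes were 1.77% for TGACGTCA, 16.3% for CAGATG and 69.3% for CANNTG. A match is a run of letters and does not show that a factor binds there.

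The beta cell hormone genes measured here, Ins2 and Iapp, stayed near or under the floor, which is a median signal and not a detection call. Ins1, the other insulin gene, was not found by its symbol in the annotation used and was not measured. Ins2 (Entrez gene 16334), which encodes insulin, had a signal of 16.3 at day 5, 102 with MPA and 53.8 without at day 6, and 123 with MPA and 92.5 without at day 8. The day 8 difference of 0.41 on the log2 scale was about as large as the SD between probe sets, and the _x_at suffix marks a probe set whose probes can also match other transcripts. Iapp encodes amylin, which is released with insulin, and its main probe set (Entrez gene 15874, the brightest of 4) had 9.24 at day 5, 86.3 with MPA and 27.0 without at day 6, and 81.6 with MPA and 8.02 without at day 8. Its other 3 probe sets had between 93.1 and 93.7 in the day 8 MPA cells and stayed under the floor on the other 4 arrays. Both signals lie so near the floor or under it that no fold is given for Iapp.

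**Figure D2:**
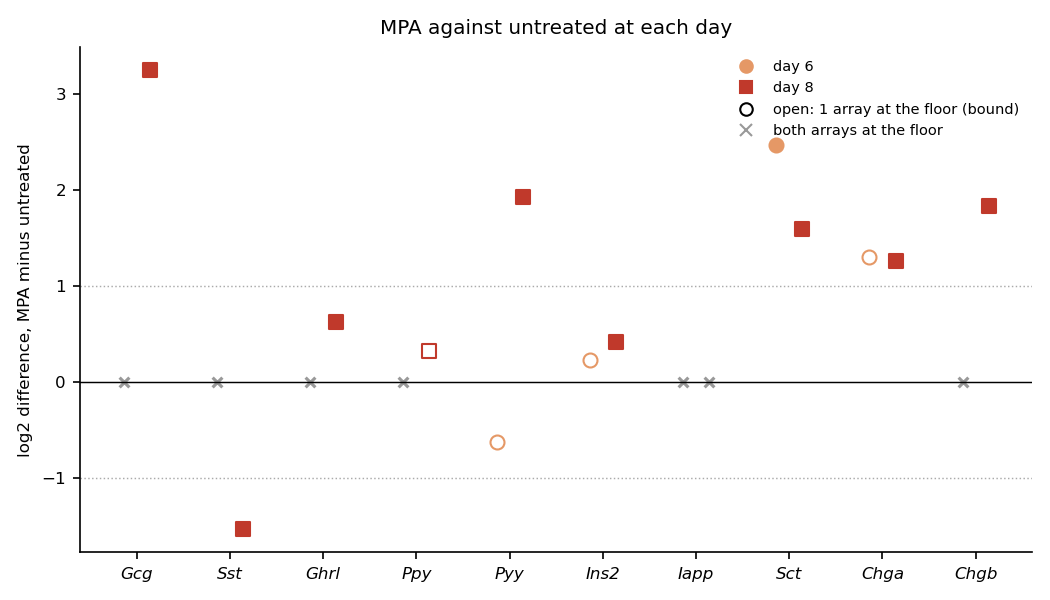
Log2 difference of MPA minus untreated at day 6 (circles) and at day 8 (squares) for the 10 hormone genes, with open symbols where 1 array is under the floor and crosses where both are. At day 8, 5 genes lie above the dotted line of a 2-fold difference and Sst lies below the lower one, while at day 6 Sct and Chga alone lie beyond it.

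At day 6, after 1 day of MPA, 2 of the 10 hormone genes (Sct and Chga) were at least 2-fold higher, against 2.70% of all genes, and 0 were 2-fold lower, against 2.12% of all genes. In 6 of the 10 both day 6 arrays lay under the floor, so that no difference can be given. The only fit with an error was limma over 4 arrays, with MPA and without on both later days, a term for day and 1 residual degree of freedom, where the error is the disagreement of the MPA differences between the days. Of the 8 hormone genes that passed the floor on 2 or more of these arrays, 0 passed an adjusted p of 0.05 in limma, and of all 11599 genes tested 0.00862% passed, which is 1 gene (Fgfbp3, named after its value was seen). At an unadjusted limma p under 0.05 there were 2 of the 8, Sct and Chga, against 739 of all 11599 genes tested. Averaged over both days, Sct was higher with MPA by 2.03 on the log2 scale (SE 0.39, limma adjusted p 0.492, higher at 2 of 2 days). Chga was higher by 1.27 (SE 0.40, limma adjusted p 0.647, higher at 2 of 2 days). For Gcg the fitted difference was 1.62 (SE 0.75, limma adjusted p 0.802), since it was under the floor on both day 6 arrays and the fit counts a difference seen at 1 day as error.

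The untreated cells show how the hormone genes differed over time. Ghrl ranked first of 12824 genes for day 8 against day 6, at least 25.6-fold, and Sst stood at rank 23. Both values are bounds, so their true place among all genes is not known. Pyy was 5.71-fold higher, Chgb at least 3.60-fold, Gcg at least 3.13-fold and Chga at least 2.83-fold. In all, 6 of the 10 were higher by 2-fold or more in the day 8 cells, against 4.99% of all genes, and 0 were 2-fold lower, against 4.53%. At day 6 against day 5 the counts were 1 higher (Sct, at least 2.34-fold), against 3.79% of all genes, and 1 lower (Chga, at least 2.02-fold), against 3.05%. At day 8 against day 5 they were 5 higher, against 6.75% of all genes, and 0 lower, against 5.11%. Chga is the gene missing from the last count, since its day 8 signal was 1.40-fold above that of day 5.

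The same step was taken within the MPA cells. Ghrl was at least 39.4-fold, Pyy at least 33.3-fold, Gcg at least 29.6-fold and Chgb at least 12.8-fold higher in MPA cells of day 8 than of day 6. All of these are bounds, and ranked at the bound they stood at 3, 5, 7 and 34 among 12257 genes. Sst was at least 2.88-fold and Chga 2.75-fold higher. This made 6 of 10 higher, against 5.14% of all genes, and 1 lower, Sct by 2.52-fold, against 5.14% as well. Sct was also lower at day 8 than at day 6 without MPA, by 1.37-fold. These steps use the same day 8 and day 6 arrays as the MPA comparisons, so the comparisons are not independent.

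The hormone genes did not share 1 profile over the 5 arrays. Likeness was measured as the distance between log2 profiles after each gene's mean was taken away, where a small distance means a like profile. Each hormone gene was compared with the 12079 other genes that passed the floor on 2 or more arrays. Ppy and Iapp passed it on fewer arrays and were left out. Among the hormone genes the nearest pairs were Gcg and Chgb (1.15), Gcg and Pyy (1.20) and Pyy and Chgb (1.24). The farthest were Ghrl and Sct (6.19) and Ins2 and Ghrl (5.23). The nearest gene of all to Gcg was Neurog3, the transcription factor gene that starts endocrine differentiation, at a distance of 0.89, followed by Vtn (1.09) and Cxcl12 (1.11). The nearest to Sst were Elavl4, of a neuronal RNA-binding protein (0.28), Hoxa4 (0.57) and Dcx, of the doublecortin of young neurons (0.64). The median distances to all genes compared were 4.32 for Gcg and 2.81 for Sst. Ghrl lay nearest to Flrt2 (0.56), Pyy to Arg1 (0.46), Sct to Ang (0.98), Chga to Chrnb1 (0.40), Chgb to Nppa (0.56) and Ins2, whose profile is nearly flat at the floor, to Cdipt (0.10). Gcg, Sst, Ghrl and Chgb were under the floor on the day 5 and day 6 arrays. Their profiles thus rest on the 2 day 8 values, and so do those of Neurog3, Dcx and Hoxa4. Only the main probe set of each gene was used. With at most 5 points per gene many profiles are alike, so these distances only describe the arrays.

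**Figure D3:**
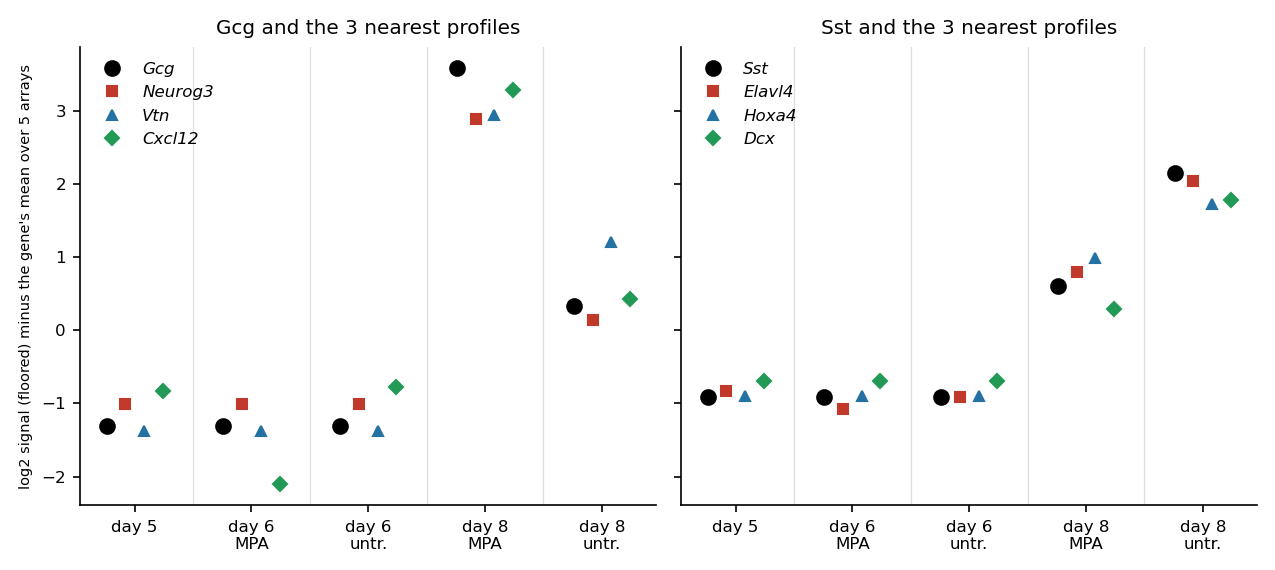
Log2 signal (raised to the floor) minus the gene's mean over the 5 arrays, for Gcg and for Sst with their 3 nearest genes. Gcg, Neurog3, Vtn and Cxcl12 are highest in the day 8 MPA cells, and Sst, Elavl4, Hoxa4 and Dcx are highest in the untreated day 8 cells.

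Neurog3, Isl1 and Neurod1, transcription factor genes of endocrine progenitors and islets, were among those higher with MPA at day 8. Of 20 matched genes of this list, 6 were at least 2-fold higher, against 2.58% of all genes, and 1 was 2-fold lower, against 2.20%. Another 2 were under the floor on both arrays, and the median log2 difference was 0.46. Neurog3 had a signal of 5.68 at day 5, 69.0 with MPA and 4.27 without at day 6, and 1295 with MPA and 193 without at day 8. It was 6.71-fold higher, the fifth of 12599, and its other probe set reached the floor only in the day 8 MPA cells, with 106 against 9.96 without MPA. Neurod1, which acts after Neurog3, had 101 at day 5, 249 with MPA and 98.0 without at day 6, and 2184 with MPA and 646 without at day 8, and its second probe set went the same way (log2 differences of 1.76 and 1.90). Foxa1, an endoderm factor, was 2.21-fold higher. Isl1, St18 and Nkx2-2, named after their values were seen, were 5.27-fold, 3.27-fold and 2.22-fold higher. A second probe set of St18 had a log2 difference of at least 0.90, with 161 with MPA and 64.7 without. Isl1 is shared by islet cells, motor neurons and cardiac progenitors, and at day 6 it was 2.17-fold lower with MPA. At day 6, 1 gene of the 20 was 2-fold higher with MPA (Neurod1, 2.55-fold), against 2.70% of all genes. Another 2 were lower (Pax6 by 3.29-fold and Isl1), against 2.12%.

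Pax6, used by islet and neural cells, was 2.93-fold lower with MPA on its brightest probe set, with signals of 605 with MPA and 1770 without at day 8, and its other 4 probe sets lay near or under the floor. Insm1 differed by 1.38-fold. Pdx1, the defining factor of pancreatic progenitors and beta cells, had 90.4 with MPA and 78.6 without at day 8, so in cells labelled as on the way to pancreas it passed the floor on 1 of 5 arrays. Pax4, needed for beta and delta cells, was under the floor on all 5 arrays. Without MPA, 8 of the 20 were higher by 2-fold or more on day 8 than on day 5, against 6.75% of all genes. Among them were Neurod1 (6.38-fold) and Insm1 (at least 6.22-fold). Another 2 were lower (Hhex and Foxa2), against 5.11%.

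Genes for processing and storing hormones follow, to be read beside the 2.58% of all genes at least 2-fold higher with MPA at day 8 and the 2.20% lower. Of 15 prohormone processing and granin genes, 1 was 2-fold higher with MPA at day 8, Scg2 of secretogranin II (at least 3.31-fold, 287 with MPA and 77.0 without), and 1 was 2-fold lower, Pcsk1n (at least 2.44-fold). A further 8 were measured at under 2-fold, 1 had only a bound under it and 4 were under the floor on both day 8 arrays. The convertase gene Pcsk1 had its top signal, 138, at day 5 and was under the floor on both day 8 arrays. Cpe, whose product trims the cut peptides, was 1.75-fold higher (6836 with MPA and 3901 without), and Pam, which amidates them, 1.58-fold. Mboat4, of the enzyme that acylates ghrelin, had 109 with MPA and 24.5 without at day 8. Of 23 granule and exocytosis genes 4 were 2-fold higher and 0 lower: Rph3al (2.56-fold), Syt7 (2.62-fold), Ptprn2 (2.04-fold) and, named after its values were seen, the KATP channel subunit gene Abcc8 (at least 2.98-fold). A further 9 were measured at under 2-fold, 3 had only a bound under it and 7 were under the floor on both arrays. The probe sets of Syt7 disagreed, with log2 differences of 1.39, 0.88, 0.22 and -0.23. Rph3al, Ptprn2 and Abcc8 each have a second probe set that was under the floor on all 5 arrays. The list medians were 0.25 and 0.35 on the log2 scale, against 0 over all genes.

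Other hormone genes and the receptor genes were mostly under the floor on both day 8 arrays, 14 of 17 and 12 of 22. Over all genes, 2.58% were at least 2-fold higher with MPA at day 8 and 2.20% lower. Of the 17 gut, islet and neural peptide or amine genes, 0 were 2-fold apart with MPA at day 8 and 11 were under the floor on all 5 arrays, among them the gut hormone genes Gip and Gast. Cck had 102 with MPA and 66.2 without at day 8. Tph1, of the serotonin-making enzyme of enterochromaffin cells, peaked at day 6, with 784 with MPA and 980 without, and had 150 with MPA and 101 without at day 8. Of 22 hormone receptor genes 0 were 2-fold apart at day 8 and 8 were under the floor on all arrays, including Glp1r and Ghsr. Insr, of the insulin receptor, had 973 with MPA and 987 without.

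**Figure D4:**
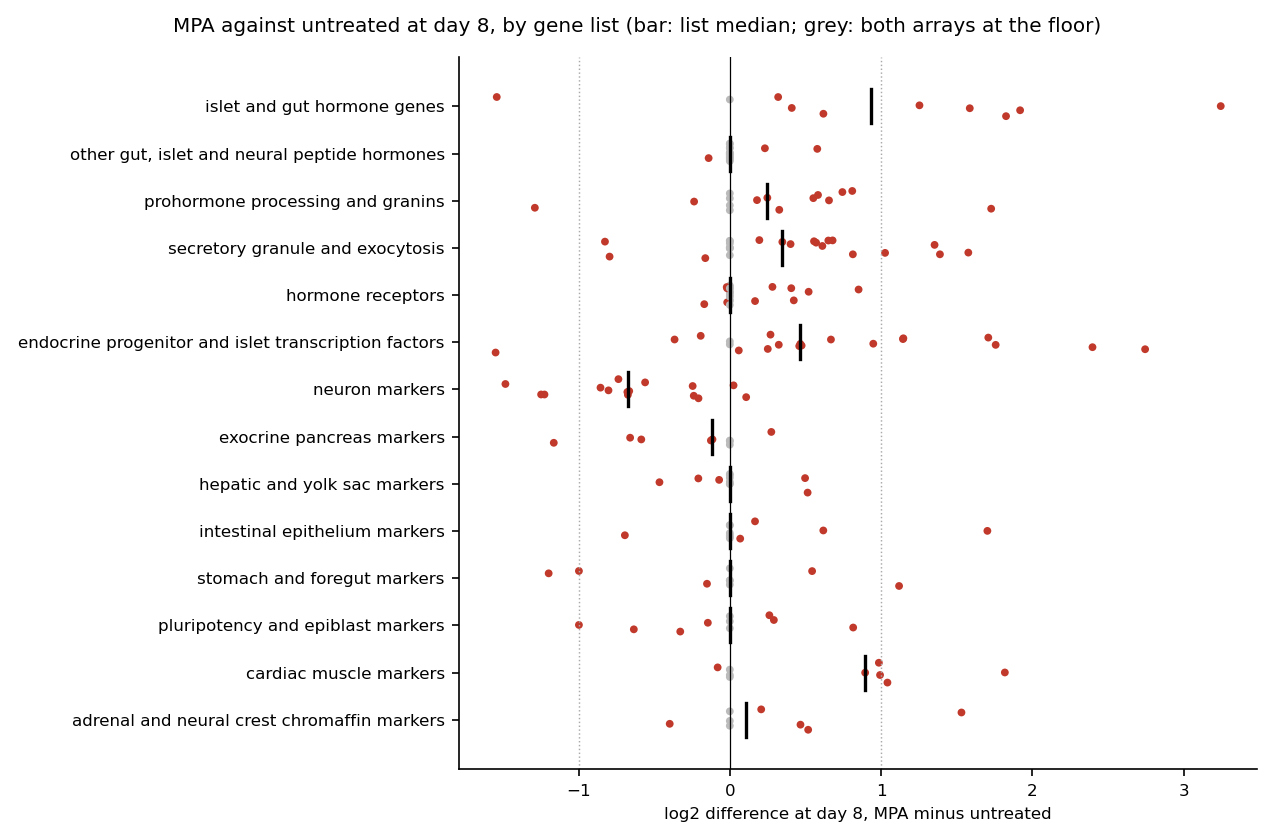
Log2 difference of MPA minus untreated at day 8 for each gene of the hormone list and of the 13 other lists, with the list median as a bar and genes under the floor on both arrays in grey. The hormone median is 0.94 and that of the islet transcription factors 0.46, while the neuron markers have a median of -0.67.

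Markers of other cell types differed at day 8 too. The shares of all genes at least 2-fold apart with MPA were 2.58% higher and 2.20% lower at day 8. At day 6 they were 2.70% higher and 2.12% lower. Of 15 neuron markers 13 were lower as measured with MPA, 3 of them at least 2-fold (Dcx, Elavl4 and Elavl2), and 0 were 2-fold higher; their summed signal was 9298 with MPA and 12480 without. Other probe sets of these 3 genes were not all as low: the log2 differences were -0.11 for a second one of Dcx, -0.94 and 0.13 for Elavl4, and -1.06 and -0.13 for Elavl2, counting those above the floor on both arrays. Sst was lower as well. At day 6, 3 of the 15 were 2-fold lower with MPA (Stmn3, Nefl and Nefm) and 0 higher. In all, 9 were lower, 2 higher and 4 under the floor on both arrays. The summed signal was 3387 with MPA and 5416 without, with 8 and 10 of the 15 above the floor. It was highest at day 5, at 15154, when Stmn2 had 7697 and Dcx was under the floor. Whether these genes mark neurons at day 6 was not tested. Of 9 cardiac markers 2 were at least 2-fold higher with MPA at day 8, Actc1 (3.53-fold) and Nppa (2.06-fold), and Tnnt2 and Tnni1 were under the floor on all arrays. The cardiac sum was 8167 with MPA and 3266 without, with 5 of the 9 above the floor on each array. Actc1 alone had 4373 with MPA and 1240 without. Of 11 intestinal markers 1, Vil1 of the brush border, was 3.26-fold higher, and Muc2, Lyz1, Fabp2, Cdh17 and Alpi were under the floor on all arrays. Of 9 exocrine pancreas markers 0 were 2-fold higher and 1 lower (Cela3b). Only 1 of the 9 lay above the floor with MPA and 5 without. Their summed signals, 351 with MPA and 711 without, thus hold values under the floor and are not compared. Of 9 stomach and foregut markers 1 was 2-fold higher (Barx1) and 1 lower (Tff1), and of 10 pluripotency and epiblast markers 0 were 2-fold apart. Hepatic and yolk sac markers had 0 of 11 genes 2-fold apart, and of 8 chromaffin markers Ddc alone was 2-fold higher (2.89-fold), with Th under the floor on all arrays. The part of these cell types in the hormone gene differences was not tested.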

How the data were processed

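RNA of 5 cultures was hybridised to 1 mouse expression array each. The deposited intensity values are MAS5 signals, per the submitters' processing notes; a 2% trimmed mean of 500 was read from the values. Of 45101 probe sets, 34945 had 1 gene symbol in the platform annotation, 932 had several, 9160 had none and 64 were controls, which left 18193 genes, each with the probe set of highest mean signal. Signals were raised to the floor of 86.8 and differences taken on the log2 scale with numpy 2.4.6 and pandas 2.3.3 (Python 3.11.15). The fit used limma 3.58.1 (R 4.3.3; trend and robust eBayes, Benjamini-Hochberg over all genes tested), tested on simulated data. Probe-level files were not used here.

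The hormone genes and the 13 lists (178 of 200 genes matched) were chosen with earlier results of these data known. Of each other list, the text names up to 4 genes with the largest mean MPA difference, up to 4 with the largest untreated day 8 against day 5 difference, a few well-known genes by name (such as Pcsk1, Cpe, Neurog3, Neurod1 and Pdx1), and the 3 nearest profiles of each hormone gene; further genes named, such as Isl1, Pam, Mboat4 and those under the floor, were chosen after their values were seen. Alternatives varied the floor, the pseudocount, the scaling between arrays, the probe set per gene and the terms of the fit. Promoters and start sites are from RefSeq (GRCm38.p6).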

Additional observations from a re-analysis of the deposited data

Results flagged for a closer look

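The MPA difference had opposite signs at the 2 days for 31 of the 178 genes in the other lists, and for 2 of these, Pcsk1n and Isl1, it was at least 2-fold at both days. Of the 10 hormone genes Pyy alone had opposite signs, but in 6 of them both day 6 arrays lay under the floor. With the 25th percentile floor Ghrl (-1.82 at day 6 and 0.62 at day 8) and Ppy (-1.12 and 1.68) had opposite signs too. With 1 array per group these oppositions were not tested. Pyy differed by -0.63 on the log2 scale at day 6, where the MPA array lay under the floor, and by 1.92 at day 8. Pcsk1n, whose product inhibits the convertase PC1/3, differed by 1.27 at day 6 and by -1.29 at day 8, and both values are bounds because 1 array of each pair was under the floor. Isl1 differed by -1.12 at day 6 and by 2.40 at day 8, with all 4 arrays above the floor.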

How the results depend on the processing

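The count of hormone genes 2-fold apart with MPA at day 8 was 6 and ran from 5 to 8 over the alternatives. The 5 are out of 8 genes, without probe sets ending in _s_at, _x_at or _a_at, a setting in which Gcg and Ins2 drop out because each has only such a probe set. Over all alternatives and comparisons 381 of 408 hormone gene differences kept their side of a 2-fold difference, 27 did not, and 0 of those at least 2-fold apart reversed. A change of direction under 2-fold was not counted. The 408 include differences that were 0 because both arrays lay under the floor. The floor mattered most where signals were low. At the 25th percentile (14.7) the counts were 8 for MPA at day 8 (26.2% of all genes), 7 for MPA at day 6 (25.7%), 5 for untreated day 6 against day 5 (29.0%) and 8 for untreated day 8 against day 5 (34.2%). At the 65th percentile (176) they were 6 for MPA at day 8 (2.61% of all genes), 1 for MPA at day 6 (2.73%), 0 for untreated day 6 against day 5 (4.20%), 3 for untreated day 8 against day 6 (6.28%) and 3 for untreated day 8 against day 5 (8.49%). With log2(signal + floor) they were 1 for MPA at day 6 (4.99%) and 1 for untreated day 6 against day 5 (7.73%). The MPA difference at day 8 ranged from 2.89 to 3.32 for Gcg (over the 7 settings that measure it) and from -1.62 to -1.27 for Sst. That of Chga at day 6 ranged from 0.27 to 1.58. In limma 0 hormone genes passed under any alternative, and the Ghrl difference over both days reversed to -0.60 with the 25th percentile floor and to -0.0065 with log2(signal + floor). Without probe sets ending in _s_at, _x_at or _a_at, the log2 difference of Stmn3, MPA day 8 against MPA day 6, reversed to -0.12. In that setting the log2 difference of Dbh, untreated day 6 against day 5, reversed to 0.26 and the log2 difference of Dbh, untreated day 8 against day 5, reversed to 0.079; the cause was not tested, but another probe set of the gene was used. The limma fit sets MPA beside untreated cells within each day; without the day term 0 hormone genes passed as well. No paired analysis by replicate was possible because each group is 1 array.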
